A study of Mus musculus with 3 samples.

Results

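The genes described here are the autophagy genes of muscle: the ubiquitin-like proteins of the LC3 and GABARAP families (Map1lc3a, Map1lc3b, Gabarap, Gabarapl1, Gabarapl2), the cargo receptors Sqstm1, Bnip3 and Bnip3l, and the initiation genes Becn1 and Ulk1. Every probe set annotated to exactly 1 of these 10 symbols was taken, which gave 17 probe sets of 9 genes, out of 20380 probe sets of 12393 genes that carry a single gene name. Bnip3l had no probe set of its own. RNA levels were measured by a 3' expression array in 3 samples of normal mouse muscle, called muscle 1, muscle 2 and muscle 3, with 1 array each. The muscles came from littermate controls aged 3 to 6 weeks, and served the study as the normal tissue beside tumours derived from Pax7-expressing satellite cells, the stem cells of muscle. The labels give no alleles, sex or muscle for these mice and do not say whether samples were pooled. They state an injection of 4-hydroxytamoxifen into the hindlimb for the mice that formed tumours, and do not say whether the littermates received it. Tumour arrays were not analysed here, so there is 1 group and no contrast between groups, and each level is given with the spread between the 3 muscles as its error.

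Autophagy encloses cytoplasm and damaged organelles in a double membrane and delivers them to lysosomes for breakdown. The kinase Ulk1 starts the process, Beclin 1 (Becn1) works with a lipid kinase to mark the forming membrane, and proteins of the LC3 and GABARAP families are then joined to a lipid in that membrane, where they bind cargo receptors such as p62 (Sqstm1) and the mitochondrial proteins Bnip3 and Bnip3l. In skeletal muscle the pathway is known for supplying amino acids during fasting, for removing damaged mitochondria, and for its activation by Foxo3 in atrophy. RNA levels do not measure the rate at which cargo is broken down, because LC3 and p62 proteins are themselves consumed in the process.

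All values are log2 RMA levels, on which a difference of 1 is a 2-fold difference, and errors are SD over 3 muscles (n = 3). A background level was set on each array from 95 probe sets that read 61 genes typical of other organs, as their 95th percentile, which came to 6.88, 6.79 and 6.85 in muscles 1, 2 and 3. The tissue label held, since all 10 skeletal muscle fibre markers measured, creatine kinase Ckm and myosin Myh4 among them, were above background in every muscle, with a largest range of 0.0677 between muscles, while all 5 markers of heart muscle were below it in every muscle. Some markers of other cells in the tissue were also above background in every muscle. They were 6 of 6 fibroblast, 4 of 5 endothelial, 3 of 5 macrophage, 2 of 3 adipocyte, 2 of 3 Schwann cell and 2 of 4 satellite cell genes. Of the erythroid genes measured, 0 of 3 were. The share over all genes was 46.3%, so the smaller of these counts are near it. In whole tissue the share of each cell type and its RNA level per cell cannot be told apart, and a level below background does not show that a gene was silent. Probe sets bind with different strength, so levels of different genes were not ranked.

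Every one of the 9 measured autophagy genes had at least 1 probe set above background in all 3 muscles. Of the 17 probe sets, 12 exceeded background in every muscle and the remaining 5 did so in none of them. Over all single-gene probe sets 39% were above it in all 3 muscles and 57.2% below it in all 3, and by the highest probe set of each gene 46.3% of 12393 genes were. The genes were proposed as muscle autophagy genes with earlier results of these arrays known, so the counts describe them and show no enrichment.

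**Figure D1:**
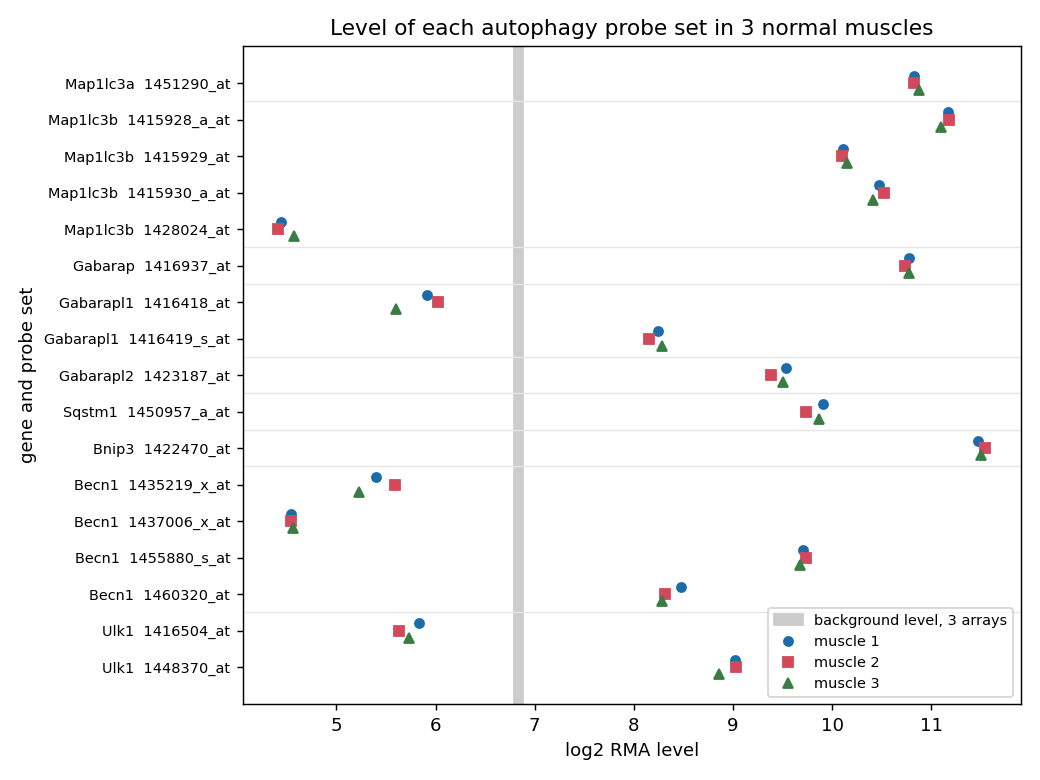
Log2 RMA level of each of the 17 autophagy probe sets (rows, named by gene and probe set) in muscle 1 (circles), muscle 2 (squares) and muscle 3 (triangles). The grey band spans the background levels of the 3 arrays, 6.79 to 6.88. The 3 muscles lie within 0.425 of each other on every row, whereas probe sets of Map1lc3b, Gabarapl1, Becn1 and Ulk1 fall on both sides of the band.

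The LC3 genes encode the proteins that coat the forming membrane. Map1lc3a, measured by 1 probe set (1451290_at), was at 10.83, 10.83 and 10.88 in muscles 1, 2 and 3 (mean 10.85 ± 0.03). Muscle 3 was the highest, by 0.05 over the mean of the other muscles. Map1lc3b, the LC3 form most used as a marker of autophagosomes, had 4 probe sets. Probe set 1415928_a_at was at 11.17, 11.18 and 11.09 in muscles 1, 2 and 3 (mean 11.15 ± 0.05), and probe set 1415930_a_at at 10.47, 10.53 and 10.42 (mean 10.47 ± 0.06). Both were highest in muscle 2 and lowest in muscle 3. The other probe set above background, 1415929_at, was at 10.11, 10.10 and 10.15 (mean 10.12 ± 0.02), with the opposite order of those muscles. The fourth, 1428024_at, was at 4.44, 4.41 and 4.57 (mean 4.47 ± 0.08), below background in every muscle and 6.67 ± 0.13 log2 units below 1415928_a_at.

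The GABARAP genes encode close relatives of LC3 that are thought to act mainly at later steps of autophagosome formation. Gabarap (1416937_at) was at 10.77, 10.74 and 10.77 in muscles 1, 2 and 3 (mean 10.76 ± 0.02), the smallest spread of any autophagy probe set above background. Gabarapl2 (1423187_at) was at 9.53, 9.38 and 9.50 (mean 9.47 ± 0.08), with muscle 2 the lowest and a range of 0.15. Gabarapl1, the family member known as a Foxo3 target in muscle, had 2 probe sets that differed. Probe set 1416419_s_at was above background at 8.24, 8.15 and 8.29 (mean 8.23 ± 0.07), with muscle 2 lowest. Probe set 1416418_at was below background at 5.91, 6.02 and 5.60 (mean 5.84 ± 0.22), with muscle 2 highest, so the order of the muscles was turned round between the probe sets. By the array maker's naming, the ending _s_at marks probes shared by several transcripts, possibly of different genes. Without probe sets ending in _s_at or _x_at Gabarapl1 had 0 probe sets above background, and its level here therefore rests on a probe set that may read other transcripts.

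Sqstm1 encodes p62, which links ubiquitin-marked cargo to LC3. Its only probe set (1450957_a_at) was at 9.90, 9.73 and 9.87 in muscles 1, 2 and 3 (mean 9.84 ± 0.09). Muscle 2 was the lowest and the span was 1.13-fold. Bnip3 encodes a mitochondrial outer membrane protein that binds LC3 and is known to be induced by hypoxia and by Foxo3. Its only probe set (1422470_at) was at 11.47, 11.54 and 11.50 in muscles 1, 2 and 3 (mean 11.51 ± 0.04), a span of 1.05-fold with muscle 2 the highest. Bnip3l, also called Nix, removes mitochondria during red cell maturation. The 3 probe sets that list it are each annotated to the pseudogene Bnip3l-ps as well, so they are not counted as members and no level is assigned to the gene. Those shared probe sets had means of 9.90 ± 0.04, 8.12 ± 0.11 and 6.24 ± 0.18, the last of them below background in every muscle.

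The promoters of these receptors show how the members differ in sequence. Windows from 250 bases before to 50 bases after the annotated start came from RefSeq (GRCm38.p6) and were found for 7 of the 10 genes. The Bnip3 window (chr7:138909457-138909756, minus strand) is printed because it was the only one of the 7 with the palindrome CACGTG, the core of the element bound by the lysosomal regulator Tfeb and by other E-box factors. Capitals mark that palindrome and each match, on either strand, to a core motif of the hypoxia-inducible factors, which is ACGTG in one form. The other form of that core is GCGTG. The palindrome begins at -108 from the start and contains the first form on both strands, and there are 3 matches to the second form elsewhere in the window. The Sqstm1 window (chr11:50210771-50211070, minus strand) is printed because it was the only one with TATAAA. Its capitals mark that motif, which begins at -1 and so overlaps the annotated start, and 3 matches to the GC box GGGCGG. Both are written 5′ to 3′ on the strand of the gene.
Bnip3: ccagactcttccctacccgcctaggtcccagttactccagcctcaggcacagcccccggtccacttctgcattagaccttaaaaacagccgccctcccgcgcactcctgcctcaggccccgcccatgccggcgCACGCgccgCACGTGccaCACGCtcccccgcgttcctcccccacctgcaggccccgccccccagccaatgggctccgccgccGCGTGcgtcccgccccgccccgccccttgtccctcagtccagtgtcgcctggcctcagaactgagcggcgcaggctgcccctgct
Sqstm1: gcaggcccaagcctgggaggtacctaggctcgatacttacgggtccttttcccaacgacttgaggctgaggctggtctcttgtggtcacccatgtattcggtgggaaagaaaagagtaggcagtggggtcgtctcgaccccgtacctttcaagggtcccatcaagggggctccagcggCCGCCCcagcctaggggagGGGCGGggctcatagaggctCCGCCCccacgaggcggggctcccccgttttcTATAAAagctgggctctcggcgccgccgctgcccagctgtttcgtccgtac

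Among 32851 promoter windows of the same length, 7.15% hold CACGTG on either strand. The hypoxia core in the form ACGTG is held by 19.6% and was present in 3 of the 7 windows (Gabarap, Gabarapl2 and Bnip3). TATAAA is held by 13.6%. GCGTG is held by 32.4% and was also present in 3 of the 7 windows, those of Map1lc3b with 5 matches, Bnip3 and Ulk1. The GC box GGGCGG was the most shared motif, in 6 of 7 windows (all but Gabarap) against 35.7% of all windows. The antioxidant motif TGACNNNGC was found in 1 window, that of Map1lc3b, against 12.4% of all. TGTTTAC, a Foxo motif, was in 0 of 7 against 3.65%, and CCAAT was in 1 of 7 (Bnip3) against 37.4%. The GC content of the 7 windows ran from 45.7% in Gabarap to 71.7% in Bnip3, with a median of 63.3% against 52.7% over all windows. A match is only a match of letters, and the arrays measured no binding.

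Beclin 1 (Becn1) is the scaffold of the lipid kinase complex. Its 4 probe sets split evenly around background. Probe set 1455880_s_at was at 9.71, 9.73 and 9.67 in muscles 1, 2 and 3 (mean 9.70 ± 0.03), and probe set 1460320_at at 8.48, 8.31 and 8.28 (mean 8.36 ± 0.11). The second had the widest range of any autophagy probe set above background, 0.20 or 1.15-fold, with muscle 1 above the other two, whereas the range of the first was 0.06. Probe sets 1435219_x_at and 1437006_x_at were below background, with means of 5.41 ± 0.18 and 4.55 ± 0.01. The ending _x_at marks probe sets with probes that match other sequences in part.

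Ulk1 encodes the kinase that starts autophagy when nutrients are short. Probe set 1448370_at was at 9.02, 9.03 and 8.86 in muscles 1, 2 and 3 (mean 8.97 ± 0.10). Muscle 3 was the lowest, and the span was 1.13-fold. Probe set 1416504_at was below background in every muscle, at 5.83, 5.63 and 5.74 (mean 5.73 ± 0.10). In it muscle 2 was the lowest, while in 1448370_at muscle 2 was the highest.

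All 4 autophagy genes with more than 1 probe set, Map1lc3b, Gabarapl1, Becn1 and Ulk1, thus had probe sets both above background in all 3 muscles and below it in all 3. Such a split is common on the array. Among 3081 genes with at least 2 probe sets and at least 1 above background it was found in 64.8%, and among 343 such genes with exactly 4 probe sets in 85.1%. Between probe sets above background the offset was taken in each muscle, for Map1lc3b and Becn1. For Map1lc3b, 1415928_a_at exceeded 1415929_at by 1.06, 1.07 and 0.94 in muscles 1, 2 and 3 (mean 1.03 ± 0.07). For Becn1, 1455880_s_at exceeded 1460320_at by 1.23, 1.42 and 1.39 (mean 1.35 ± 0.11). Over the 4 pairs of autophagy probe sets above background, from 2 genes, the median SD of the offset was 0.0746, against 0.0969 over 3304 pairs of 1663 genes. These medians were not matched for level, and spread falls as level rises. The median SD of the 12 autophagy probe sets above background was 0.0512, over more genes than the pairs cover. A difference of 2 independent readings is expected to spread more than either reading alone. The median SD of levels and that of offsets are therefore not compared. The mean offsets of 1.03 and 1.35 exceeded the range between muscles of any autophagy probe set above background, which was at most 0.20. Over the 9 pairs of a probe set above background and 1 below it, the SD of the offset ran from 0.0408 to 0.286. The widest was for Gabarapl1, where 1416419_s_at exceeded 1416418_at by 2.34, 2.13 and 2.69 (mean 2.38 ± 0.29).

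The SD over the 3 muscles was also taken for each probe set. Over the 12 probe sets above background the SD ran from 0.0207 (Gabarap) to 0.108 (Becn1, 1460320_at), with a median of 0.0512, a factor of 1.04. The median over all 9070 probe sets above background on average was 0.0722, but spread falls as level rises, so each probe set was also set beside those within 0.5 of its mean level. The SD was above that of most such probe sets for 6 of the 12 and below it for the other 6. Sqstm1 ranked highest of the 12, with an SD above that of 80.2% of 1301 probe sets of like level, followed by Ulk1 (1448370_at) with 73.4% and Becn1 (1460320_at) with 70.5%. Map1lc3b (1415929_at) and Gabarap were the steadiest, above 16.9% and 18.5%. Among the 5 probe sets below background, Gabarapl1 (1416418_at) had the largest SD, 0.220.

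**Figure D2:**
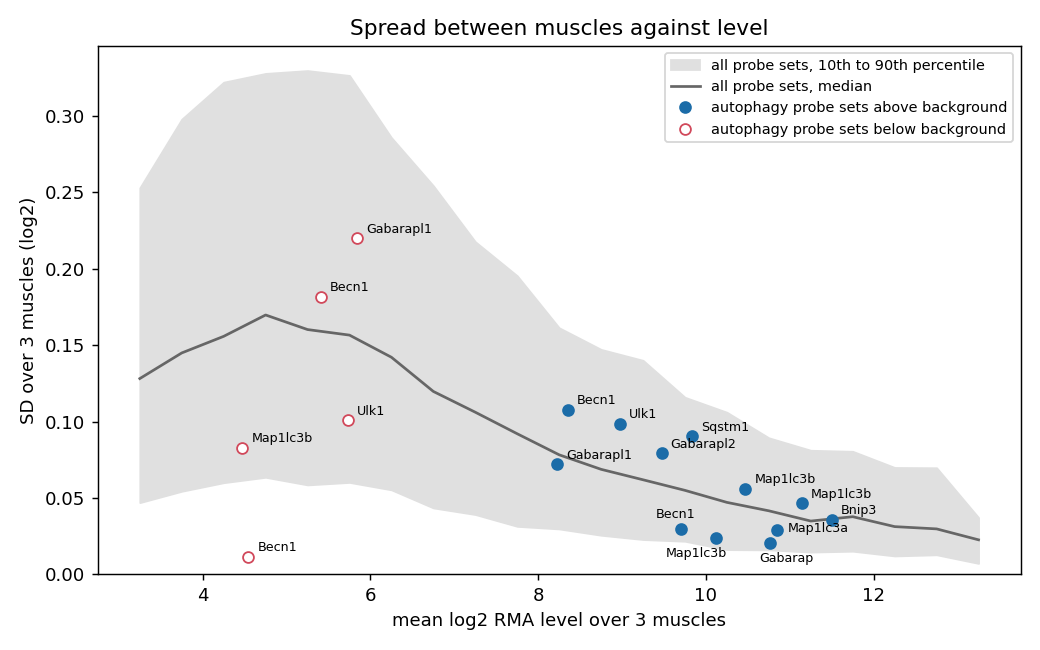
SD over the 3 muscles (log2, vertical axis) against the mean log2 RMA level (horizontal axis). The line and band are the median and the 10th to 90th percentile of all probe sets in bins of level, filled points are the 12 autophagy probe sets above background and open points the 5 below it. All filled points lie inside the band, with Sqstm1, Ulk1 and Becn1 (1460320_at) above its median line, and 1 open point, Becn1 (1437006_x_at), lies under the band.

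Whether any autophagy gene varied more between muscles than genes of like level was tested with limma, by a one-sided F test of each variance against the prior variance at its level, over 9070 probe sets with Benjamini-Hochberg adjustment. Of the 12 autophagy probe sets tested, 0 were called at an adjusted p under 0.05, and 0 had an unadjusted p under 0.05. The background was 0.0662% of probe sets called and 4.98% at an unadjusted p under 0.05. Sqstm1 had the lowest unadjusted p, 0.188, with an adjusted p of 0.990 by limma and a span of 1.13-fold. Whether the muscles came from separate animals is not stated, so the spread behind these p-values may be technical, and a missed threshold does not show that the levels were equal.

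The muscles were not ordered alike across the autophagy genes. Muscle 2 was lowest in 5 of the 12 probe sets above background and highest in 5, and muscle 3 was lowest in 5 and highest in 3. Over all probe sets above background muscle 2 was lowest in 28.1% and highest in 36.8%, and muscle 3 was lowest in 49.8% and highest in 23.1%. After quantile normalization of the 3 columns the counts for muscle 3 turned round, to 3 lowest and 5 highest of the 12, while muscle 2 was lowest in 6 and highest in 5. Muscle 2 was the lowest for Map1lc3b (1415929_at), Gabarap, Gabarapl1 (1416419_s_at), Gabarapl2 and Sqstm1. Their departures from the mean of the other 2 muscles were -0.03, -0.04, -0.12, -0.13 and -0.15. These 5 probe sets kept muscle 2 as the lowest after quantile normalization and after median centring. The 5 with muscle 2 highest were Bnip3, Map1lc3b (1415928_a_at and 1415930_a_at), Becn1 (1455880_s_at) and Ulk1 (1448370_at), with departures of 0.06, 0.04, 0.08, 0.04 and 0.09. Between probe sets above background, direction within a gene could be compared for 2 genes only, Map1lc3b and Becn1. Among their 4 pairs, 5 of 12 comparisons of a departure in a muscle had the same sign (41.7%), against 54.8% over all 3304 pairs. Pairs of Map1lc3b share probe sets, and the 3 departures of a probe set are tied to each other. The comparisons are therefore not independent, and no general direction is drawn from them. The widest departure of the 12 probe sets was 0.18, and none came from a probe set that varied in excess.

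**Figure D3:**
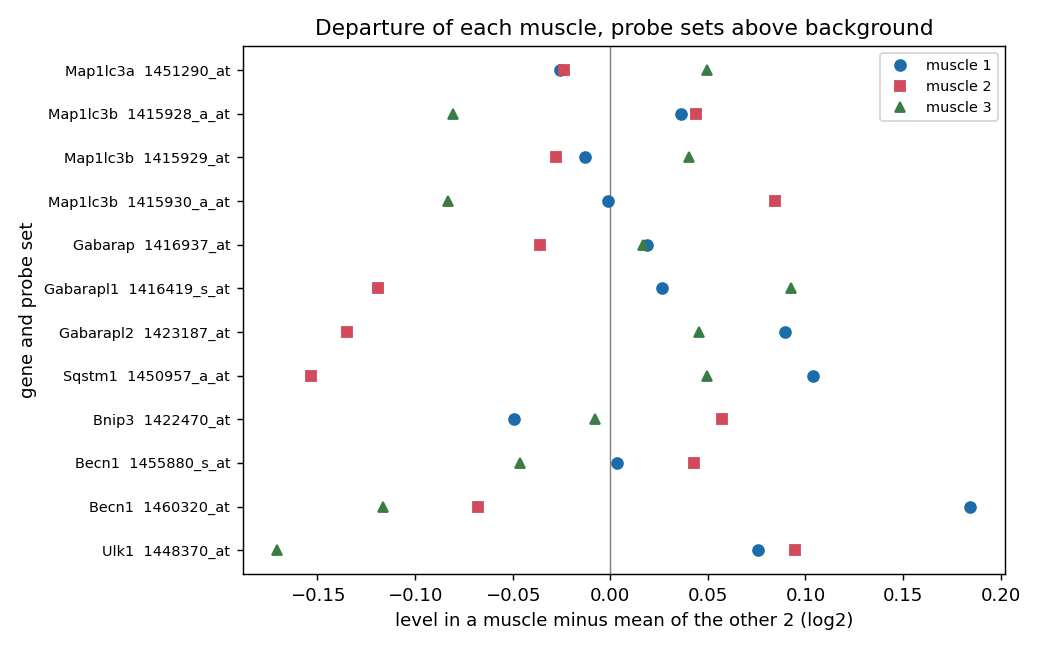
Departure of each muscle (level minus the mean of the other 2 muscles, log2, horizontal axis) for the 12 autophagy probe sets above background (rows). Circles are muscle 1, squares muscle 2 and triangles muscle 3. The widest departures are 0.18 for Becn1 (1460320_at) in muscle 1 and -0.17 for Ulk1 (1448370_at) in muscle 3, and muscle 2 lies lowest for Gabarap, Gabarapl1, Gabarapl2 and Sqstm1.

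The rest of the pathway and genes related to it were described from 11 lists. By the highest probe set of each gene 84 of the genes measured (83.2%) exceeded background in each muscle, against 46.3% over all genes, and 14 were below it in all 3. None of their tested probe sets was called for excess variance by limma. The lists run from initiation to the lysosome, followed by upstream regulators. Last come genes of atrophy and fasting, hypoxia and oxidative stress, which are not steps of autophagy but are included in these counts.

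Partners of Ulk1 in initiation were above background in 4 of 6 cases. The related kinase Ulk2 was at 9.24 ± 0.02, the scaffold Rb1cc1 at 8.92 ± 0.05 and the adaptor Atg13 at 7.48 ± 0.03. The lipid transfer gene Atg2b was below background at 5.83 ± 0.20, and Atg2a was near it at 6.83 ± 0.06 (both named after their values were seen). Of the genes that work with or bind Becn1, 4 of 8 were above background, a share near the 46.3% over all genes. The catalytic lipid kinase Pik3c3, its regulatory subunit Pik3r4 and the adaptor Atg14, each read by a single probe set, did not reach background in any muscle, at 6.19 ± 0.16, 6.13 ± 0.27 and 6.26 ± 0.07. Ambra1, which ties Ulk1 and Becn1 together, varied most among those above background, at 7.28, 6.93 and 6.86 in muscles 1, 2 and 3. Bcl2, which can hold Becn1 inactive, was below background at 5.80 ± 0.14 (named after its values were seen). From the same list Bcl2l1, Uvrag and Nrbf2 were above background, at 7.82 ± 0.09, 7.56 ± 0.11 and 8.52 ± 0.10 (also named after their values were seen).

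The genes that recruit and join LC3 to the membrane were above background in 11 of 12 cases. The phosphoinositide readers Wipi1, Wipi2 and Wdr45 were at 9.59 ± 0.12, 7.75 ± 0.13 and 8.07 ± 0.02. The exception was Atg7, the enzyme that activates LC3 for lipid joining, at 6.59 ± 0.07 (named after its values were seen). Other receptors that bind LC3 or GABARAP were above background in 8 of 9 cases. The p62 relative Nbr1 was at 10.02, 10.06 and 9.93 in muscles 1, 2 and 3, Tax1bp1 at 8.11 ± 0.08 and Tollip at 8.70 ± 0.03. The mitochondrial receptor Bcl2l13 varied most among those above background, at 8.10, 7.90 and 7.80 in muscles 1, 2 and 3. The ninth, Wdfy3, was above background in muscle 3 alone, at 7.53 against 5.72 in muscle 1 and 5.84 in muscle 2 (named after its values were seen). Its mean, 6.37, was under the filter, so its variance was not tested in the main run. The alternative without a filter took it in, and its own result there is not given here.

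All 6 measured genes of ubiquitin-dependent mitophagy were above background. The kinase Pink1, which marks damaged mitochondria, was at 11.23 ± 0.07 and the kinase Tbk1 at 8.55 ± 0.08. The channel Vdac1 was at 12.40 ± 0.06 and the fusion protein Mfn1 at 10.10 ± 0.08. Genes for fusion with lysosomes were above background in 6 of 7 cases. The SNAREs Stx17 and Vamp8 were at 8.07 ± 0.17 and 8.97 ± 0.15, and the tether subunit Vps39 at 8.24 ± 0.17. Snap29, a partner of these SNAREs, was just below background at 6.69 ± 0.15. Stx17, Vamp8, Vps39 and Ykt6 were lowest in muscle 3, as were 49.8% of all probe sets above background. Rab7 was lowest in muscle 2 and Vps41 in muscle 1 (Ykt6, Rab7 and Vps41 named after their values were seen). Lysosomal genes were above background in 12 of 14 cases, with the membrane proteins Lamp1 and Lamp2 at 11.55 ± 0.03 and 11.03 ± 0.01, the protease Ctsl at 10.30 ± 0.07 and the proton pump subunit Atp6v1h at 8.82 ± 0.10. The hydrolases Gla and Neu1 were below it at 4.76 ± 0.10 and 6.56 ± 0.27 (named after their values were seen).

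**Figure D4:**
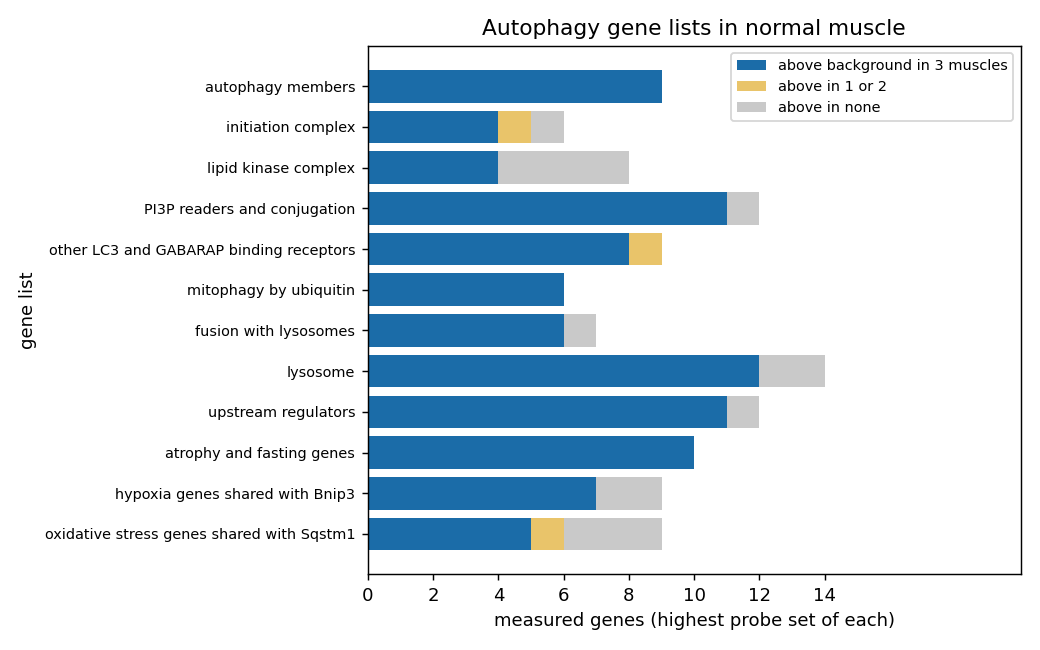
Number of measured genes (horizontal axis) in the autophagy genes and in 11 related lists (rows), each gene judged by its highest probe set. Blue counts genes above background in all 3 muscles, yellow genes above it in 1 or 2, and grey genes above it in none. All 9 autophagy genes, all 6 of ubiquitin-dependent mitophagy and all 10 of atrophy and fasting are blue. In the lipid kinase complex 4 of 8 genes are blue and 4 are grey. Over all genes 46.3% were above background in all 3 muscles, so the share of that list is near it.

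Upstream regulators were above background in 11 of 12 cases. The nutrient kinase Mtor, which holds Ulk1 inactive, was at 7.95 ± 0.01, its activator Rheb at 10.60 ± 0.01 and the Rheb inhibitor Tsc1 at 7.52 ± 0.12. Foxo3, which activates autophagy genes in atrophy, was at 8.15, 8.13 and 7.90 in muscles 1, 2 and 3. Foxo4 was below background at 5.41 ± 0.21 (named after its values were seen). All 10 genes of atrophy and fasting were above it, with Klf15 at 8.36 ± 0.02 and Cdkn1a at 8.51 ± 0.06. The atrophy ubiquitin ligase Fbxo32 varied most, at 7.18, 6.93 and 7.74 in muscles 1, 2 and 3, a span of 1.76-fold, with an unadjusted p of 0.00925 and an adjusted p of 0.732 by limma. Its other probe set had the same order of muscles, at 6.95, 6.64 and 7.09, and was above background in muscles 1 and 3. Bnip3 and Gabarapl1 (1416419_s_at), which are also known Foxo3 targets, spanned 1.05-fold and 1.10-fold over the same muscles. That probe set of Gabarapl1 had the same order of muscles as Fbxo32, but the other probe set of Gabarapl1 and Bnip3 did not. Of Map1lc3b, 1415929_at had that order, and 1415928_a_at and 1415930_a_at did not. Foxo3 itself was lowest in muscle 3, where Fbxo32 was highest. Whether orders of 3 muscles match was not tested. The mean levels of Bnip3 and Gabarapl1 (1416419_s_at), 11.51 and 8.23, were above the 7.28 of Fbxo32, and spread falls as level rises. The spans are therefore not matched for level, and a shared cause was not tested.

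Genes that share a known inducer with an autophagy receptor were above background in part. Of the hypoxia genes 7 of 9 were, with Ldha at 13.16 ± 0.03 and the glucose transporter Slc2a1 at 7.86 ± 0.14. Vegfa was at 7.44, 7.79 and 7.73 in muscles 1, 2 and 3. Car9, a carbonic anhydrase used as a hypoxia marker, and the heme oxygenase Hmox1, which is in both lists, were below background at 4.83 ± 0.21 and 5.87 ± 0.25 (named after their values were seen). Of the oxidative stress genes that share the factor Nfe2l2 with Sqstm1, 5 of 9 were above background, against 46.3% over all genes. The glutathione synthesis genes Gclm and Gclc were at 8.02 ± 0.10 and 7.02 ± 0.10. The quinone reductase Nqo1 was below background at 6.21 ± 0.18, as were Hmox1 and the cystine transporter Slc7a11 at 4.28 ± 0.41, and Srxn1 was near it at 6.88 ± 0.14 (Slc7a11 and Srxn1 named after their values were seen). Txnrd1, which varied most among those above background, was at 9.10, 9.02 and 9.32 in muscles 1, 2 and 3.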

How the data were processed

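The table the authors deposited holds log2 values for each probe set on each array. Per the submitters' processing notes these were made with RMA, which subtracts background, applies quantile normalization between arrays and summarises probes on the log2 scale. No version of RMA and no list of the arrays processed together was given. Quantile normalization hides a change shared by most genes. Total RNA was extracted with Trizol and 500 ng was labelled, per the labels' protocols. The number of arrays limits the precision, and saturation could not be tested.

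Of 22690 probe sets, 64 controls were left out, and 691 annotated to several genes were not named. Gene names came from GEO's platform annotation, with list symbols updated through RefSeq. No genomic position is given for probe sets, since the annotation names no build. The level of a list gene is that of its highest probe set. The members and lists were chosen with earlier results of these data known. Named genes are all member probe sets and, in each list, the first 3 measured genes and the one with the largest SD among those above background. Some other list genes were named after their values were seen, and are marked so in the text. With 3 samples of 1 group, no genes were ranked by likeness of pattern.

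Variance was tested with limma 3.58.1 (squeezeVar, robust, with a trend on level, 2 degrees of freedom) in R 4.3.3 over probe sets whose mean exceeded the mean background level, after a check on simulated data. Alternatives were quantile normalization, median centring, a 99th percentile background, no filter, leaving out probe sets ending in _x_at or _s_at, other limma settings and leaving out each muscle. Python 3.11.15, pandas 2.3.3, numpy 2.4.6 and matplotlib 3.10.9 were used for the rest.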

Additional observations from a re-analysis of the deposited data

How the results depend on the processing

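The 12 autophagy probe sets above background stayed 12 under quantile normalization, median centring, the 99th percentile background and without each muscle, and were 10 without probe sets ending in _x_at or _s_at. No autophagy probe set was called for excess variance by limma under any alternative run, and at an unadjusted p under 0.05 there was 1, without muscle 3, and 0 otherwise. The count over all probe sets, 6, was 23 after quantile normalization, 3 with the 99th percentile background, 16 without a filter, 0 without a trend on level and 0 without robust fitting, with 307 and 391 at an unadjusted p under 0.05 in the last 2. Leaving out 1 muscle gave 0 to 2, with 427 probe sets at an unadjusted p under 0.05 without muscle 1 and 357 without muscle 2. The median SD of autophagy probe sets, 0.0512, ran from 0.0283 (without muscle 2) to 0.0503 with 2 muscles, and was 0.0332 without muscle 3. The median SD of the offset between probe sets of 1 gene, 0.0746, ran from 0.0421 (without muscle 3) to 0.0719, where 2 values give a lower median SD by construction. Quantile normalization moved the mean levels of the 17 autophagy probe sets by -0.00963 to 0.00562, less than 1 SD of each, whereas median centring cannot move a mean and leaving out 1 of 3 muscles cannot move it by 1 SD. Under quantile normalization 10 of the 12 probe sets kept their lowest muscle and 10 their highest. No paired analysis was possible because there is only 1 group.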
